A study of Mus musculus with 3 samples.

Results

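Long-term hematopoietic stem cells (LT-HSCs) of old mice were divided by a surface protein, the P2X7 receptor (P2X7R), into cells that carried at least 1 antibody tag for it and cells that carried none. Cells with 10 or more tags summed over 12 antibodies were used, which left 3629 of the 3724 cells with antibody counts, and 1325 of them (36.5%) were P2X7R-tagged against 2304 untagged. The cells were wild-type LT-HSCs sorted from c-Kit-enriched bone marrow of female mice aged 24 months, and the 2 groups share strain, sort, age and preparation. They were profiled by DOGMA-seq, which measures open chromatin (by ATAC), transcripts and antibody tags together in each cell, in 3 libraries of 1 pool. Each group was therefore 1 sample with no replicate spread, groups of cells were compared without a test, and every interval given is an exact 95% interval that covers counting error only. The P2X7R count chose the groups, so its own difference between them is a description.

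P2X7R is the product of P2rx7, a cation channel opened by extracellular ATP at the high concentrations released by damaged or activated cells. In myeloid cells its opening lets potassium leave the cell, which is a trigger of the NLRP3 inflammasome and of interleukin-1 beta release. In the HSC compartment, the study used surface antibodies to separate platelet-biased stem cells (PLT-HSCs) from multi-lineage stem cells (MUL-HSCs), and listed P2X7R in its main text among the proteins of the second kind, while a legend of its flow cytometry gates gives P2X7R to the first. The study also found that P2X7R added little when single markers were removed, and its later panel did without it. CD61 (integrin beta 3) and CD274 (PD-L1) marked the first kind in that work, and CD357 (GITR) and CD27, both TNF receptor family members, the second.

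The tag counted for P2X7R was a short DNA barcode carried by its antibody. It is shown, 5′ to 3′, with those of CD357 and MERTK, frequent antibodies with higher counts in tagged cells, and with that of CD61, whose count was not higher.
P2X7R: tgcttcattcatgtg
CD357: ggcactctgtaacat
MERTK: gacgaacgtccgcg
CD61: ttctttacccgcctg
Over the bases compared, the P2X7R barcode differed at 11 of 15 positions from that of CD357 and at 11 of 14 from that of MERTK. The nearest barcode of the panel was that of CD61, with 7 mismatches, and the other barcodes differed at 10 to 12 positions.

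P2X7R was a low-count antibody. Its 2042 tags gave a mean of 0.563 per cell (95% interval 0.539 to 0.588), the sixth highest of the 12 antibodies, and made up 1.79% of all tags. Most tagged cells carried a single tag: 877 cells had 1 tag, 283 had 2, 103 had 3 and the rest had 4 to 12. The cells just inside the cut were thus the 877 with 1 tag and those just outside it the 2304 with none. The counts were more uneven than Poisson counts with 1 mean for all cells, with a variance 1.59 times the mean. They left 63.5% of cells at 0, where that distribution gives 57.0%. Cells differ in antibody depth, and the other antibodies also had variances above their means, from 1.02 times (CD206) to 6.73 times (CD274). Free antibody can add tags to cells that lack a protein, and no cell type without P2X7R was at hand to measure it. Among antibodies to macrophage proteins, tags of CD163, CD206, CD68 and MERTK were found in 1.96%, 2.26%, 7.74% and 40.3% of the same cells, against 36.5% (34.9 to 38.1) for P2X7R, so they set no common background.

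Tagged cells were close to untagged cells in chromatin and RNA yield and a little richer in antibody. The median was 10433 ATAC fragments in tagged cells (quartiles 8536 and 12336) and 10205 in untagged cells (8363 and 12055), a ratio of 1.02. RNA gave a median of 2006 against 1956 UMIs and 1220 against 1193 genes per cell. The share of fragments at transcription start sites (46.8% against 47.0%), the share in peak regions (67.4% against 67.7%) and the intronic share of RNA reads (44.6% against 44.8%) were nearly equal. The other 11 antibodies gave a mean 1.12 times as high in tagged cells (1.10 to 1.13), with medians of 30 and 28 tags. Cells with an excess of sites covered by 3 or more fragments, a property of 2 cells in 1 droplet, made up 9.13% of tagged cells (7.64 to 10.8) and 6.21% of untagged cells (5.26 to 7.27). Their part in the results was not tested, and the counts of genes, promoters and windows over the whole genome were also computed without them, which left 22 genes higher and 45 lower where all cells gave 19 and 33.

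The chance of carrying a P2X7R tag varied with how many other tags a cell had. In the quintile of cells with the fewest other tags 29.8% were tagged (26.4 to 33.2), and in the quintile with the most 45.3% (41.7 to 49.0), while the 3 quintiles between them held 35.7% to 36.0%. As a share of all tags, P2X7R went the other way, from 2.74% to 1.40%, and with each cell thinned to 10 tags the tagged share went from 20.8% to 12.4%. The quintiles were set by the other tags themselves, which are part of the denominator, so no order of P2X7R level is read from them. By ATAC fragments the share was 35.1% (31.6 to 38.7) in the lowest quintile, 40.2% (36.6 to 43.9) in the highest and 33.6% to 37.7% between them.

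**Figure D1:**
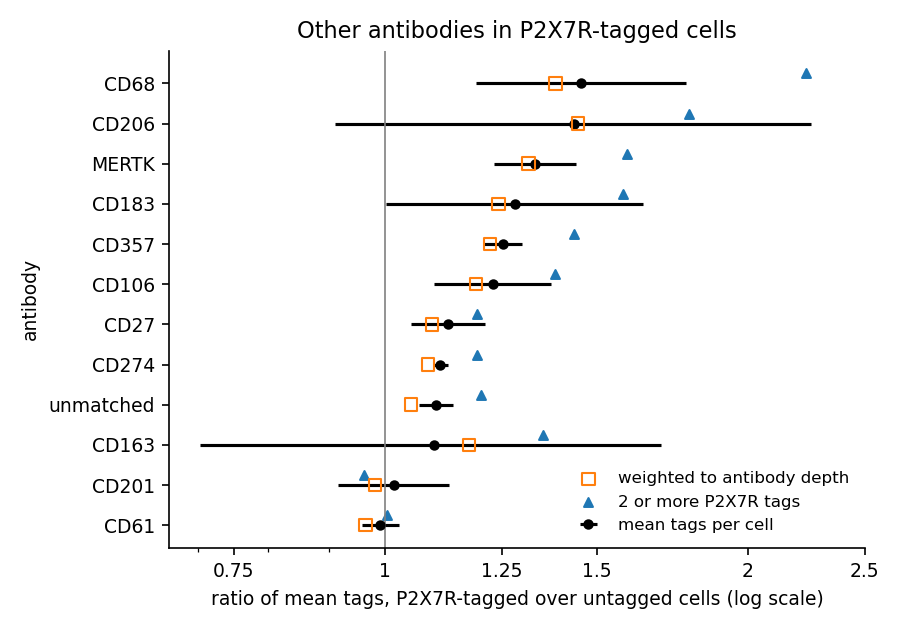
Ratio of mean tags per cell between P2X7R-tagged and untagged cells for the 11 other antibodies and for tags that matched no antibody, on a log axis, where black points with bars are the ratio and its exact 95% interval, open squares the ratio with untagged cells weighted to the antibody depth of tagged cells, and triangles the ratio for cells with 2 or more P2X7R tags. Every row but CD61 and CD201 lies above 1 on all 3 measures, also that of tags that matched no antibody. CD61 and CD201 lie near 1.

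The other surface proteins did not move alike. CD357 had 3.73 tags per tagged cell (3.63 to 3.84) and 2.98 per untagged cell (2.91 to 3.05), a ratio of 1.254 (1.21 to 1.30). The ratio was 1.22 when untagged cells were weighted to the same depth in the remaining antibodies and 1.22 without cells with excess overlaps. The mean CD357 count was 3.46 in cells with 1 P2X7R tag, 4.01 with 2 and 4.73 with 3 or more. MERTK, a receptor tyrosine kinase that macrophages use to take up dying cells, had 0.864 against 0.648 tags, a ratio of 1.33 (1.23 to 1.44), which was 1.32 at weighted depth and 1.19 without the deepest 5% of cells. CD106 (VCAM-1), an adhesion molecule, had 0.406 against 0.330 tags, a ratio of 1.23 (1.10 to 1.37), and 1.39 for cells with 2 or more P2X7R tags. CD68, a lysosomal protein of macrophages, was rarer still, at 0.140 against 0.0959 tags, a ratio of 1.46 (1.19 to 1.78) that became 1.20 without the deepest 5% of cells. A CD68 tag was found in 9.06% of tagged and 6.99% of untagged cells, and in 3.56% and 3.01% after the same thinning. CD27 had a ratio of 1.13 (1.05 to 1.21) and CD274 of 1.11 (1.10 to 1.13). Their intervals and that of CD106 overlapped that of tags that matched no antibody, at 1.10 (1.07 to 1.14). Relative to the tags of the other antibodies, the ratio was 1.14 (1.10 to 1.18) for CD357, 1.20 (1.11 to 1.29) for MERTK and 1.10 (0.984 to 1.23) for CD106. It was 1.30 (1.07 to 1.59) for CD68, 1.01 (0.940 to 1.08) for CD27 and 0.983 (0.969 to 0.998) for CD274.

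CD61 and CD201 set the other end of the panel. CD61 gave 3.74 tags per tagged cell and 3.78 per untagged cell, a ratio of 0.992 (0.957 to 1.03), although tagged cells had more tags in all. Relative to the tags of the other antibodies the CD61 ratio was 0.873 (0.843 to 0.904), and with cells thinned to 10 tags 67.3% of tagged and 72.2% of untagged cells kept a CD61 tag. CD201 (EPCR), a sorting marker of HSCs, had a ratio of 1.02 (0.914 to 1.13), and 0.909 (0.817 to 1.01) relative to the other antibodies. At weighted depth the ratios were 0.964 for CD61 and 0.981 for CD201. Cells were also split at the medians of both CD61 and CD357. Where CD357 was above its median, 44.9% of cells (41.1 to 48.7) were tagged with CD61 at or below its median and 41.6% (37.9 to 45.4) with CD61 above it. Where CD357 was at or below its median, the shares were 33.3% (30.7 to 36.0) and 31.4% (28.5 to 34.4) in the same order, so the intervals overlapped between CD61 classes at either CD357 level. These classes differ in depth, with medians of 29, 39, 22 and 29 tags of the other antibodies in the order given. At 10 tags per cell their shares were 19.6%, 14.9%, 17.5% and 12.6%. CD61 and CD357 tags are part of these 10, so no order is read from the thinned shares.

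Gates built from CD61, CD274, CD357 and CD27 at their medians, without P2X7R, were small, and the intervals of their tagged shares overlapped. In the PLT gate 105 of 342 cells were tagged (30.7%, 25.9 to 35.9), in the MUL gate 27 of 61 (44.3%, 31.5 to 57.6), and among all other cells 37.0% (35.3 to 38.7). The PLT gate is richer in antibody by construction, with a median of 36 tags of the other antibodies against 26 in the MUL gate. At 10 tags per cell the shares were 9.93% and 19.7%, but the antibodies of the gates are part of these 10, so no order is read from them.

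Across the genome, open chromatin of tagged and untagged cells was nearly the same. Fragments were summed over each gene and 2 kb upstream (14398215 nuclear fragments in tagged and 24100147 in untagged cells), and the log2 ratio of the scaled sums was taken with 0.5 added to each. Of 17112 genes with at least 500 fragments, 19 (0.111%) had a log2 ratio of at least 0.32, the threshold used throughout, and were higher in tagged cells, and 33 (0.193%) were lower by the same measure. None reached 1.5-fold, and the ratios ran from -0.45 to 0.43 on the log2 scale. Their SD was 0.09, and the 95% interval of a single gene had a median half-width of 0.15. Promoters (1 kb on each side of the start) gave 16 higher (0.14%) and 34 lower (0.298%) of 11425. Distal windows of 1 kb, more than 2 kb from every transcript start, gave 15 higher (0.813%) and 16 lower (0.867%) of 1845, at fewer fragments per feature.

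**Figure D2:**
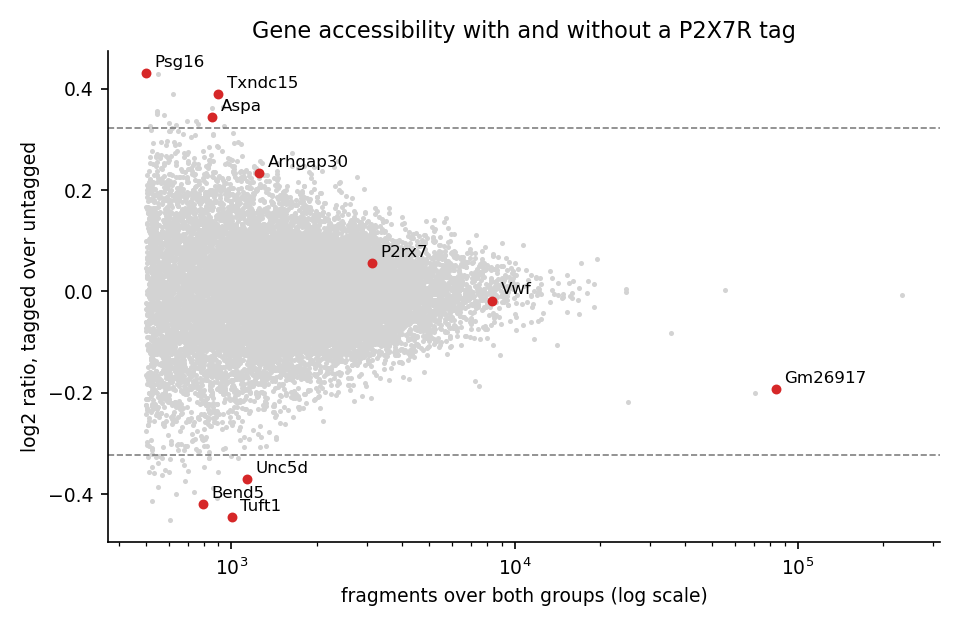
Log2 ratio of gene accessibility, P2X7R-tagged over untagged cells, against the fragments of each gene over both groups on a log axis, for the 17112 genes with at least 500 fragments, where dashed lines mark a log2 ratio of 0.32 either way and red points are genes described in the text. The cloud narrows around 0 as fragments increase, and few genes lie past the lines, none of them with over 1136 fragments.

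The P2rx7 gene itself differed between all tagged and untagged cells by no more than counting error. It lies on the plus strand of chromosome 5 (chr5:122643911-122691432, mm10) and held 1201 fragments in tagged cells, 83.4 fragments per 1000000 nuclear fragments (FPM), and 1934 in untagged cells, 80.2 FPM. The log2 ratio was 0.06 (-0.05 to 0.16). Splits of the same cells by CD357, CD27 and MERTK gave P2rx7 ratios of 0.12 (0.02 to 0.23), -0.02 (-0.12 to 0.08) and -0.10 (-0.21 to 0.0006). By tag count the level was 80.2 FPM at 0 tags, 88.1 at 1, 72.3 at 2 and 78.3 at 3 or more, with no order. At 1 tag the log2 ratio to untagged cells was 0.13 (0.02 to 0.25), and at 2 or more tags the ratio was -0.10 (-0.27 to 0.06). Among cells with CD357 at or below its median the ratio was 0.15 (0.01 to 0.28), and among cells above it -0.10 (-0.26 to 0.07), a difference that was not tested. The promoter gave 209 against 323 fragments and a log2 ratio of 0.12 (-0.14 to 0.37). The bases around its start are shown because antibody and gene could be compared there, as chr5:122643677-122643976 of GRCm38 from RefSeq, plus strand.
P2rx7 promoter: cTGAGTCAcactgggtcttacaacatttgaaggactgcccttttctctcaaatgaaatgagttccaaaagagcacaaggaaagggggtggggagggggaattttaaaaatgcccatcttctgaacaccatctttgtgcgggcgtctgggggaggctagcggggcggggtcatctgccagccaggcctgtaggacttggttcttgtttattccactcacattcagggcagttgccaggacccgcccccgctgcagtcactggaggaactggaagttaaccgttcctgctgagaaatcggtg
The capitals mark a match to the AP-1 letters TGANTCA, searched on both strands together with CCGGAA for ETS factors, AGATAA for those of the GATA family and TGTGGT for RUNX factors. Matches to these letters were found in 7.81%, 14.9%, 11.2% and 16.8% of 32851 RefSeq promoters of the same length, in the order AP-1, ETS, GATA and RUNX.

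Most other genes that encode an antigen of the panel gave small ratios. Of the 12, 9 had at least 500 fragments, and none of these passed the threshold, with ratios from -0.12 to 0.20. Below that minimum, Procr (CD201) gave 0.28 (-0.0028 to 0.55) and Vcam1 (CD106) gave 0.06 (-0.37 to 0.47). Tnfrsf18, which encodes CD357, also had few fragments, 101 in tagged cells (7.01 FPM) and 231 in untagged cells (9.59 FPM). Its log2 ratio was -0.45 (-0.80 to -0.11), while the tagged cells carried more CD357 protein tags. Between cells above and at or below the CD357 median the ratio of Tnfrsf18 was -0.04 (-0.37 to 0.29). Itgb3, which encodes CD61, gave 0.04 (-0.05 to 0.14), Cd27 gave 0.20 (-0.03 to 0.42) and Mertk gave -0.03 (-0.15 to 0.08).

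Lists of purine receptors, of genes that handle extracellular ATP and NAD and of inflammasome genes had medians from -0.04 to 0.05. They were too short for a count past the threshold to set them apart. Of 19 purine receptor genes, 14 had at least 500 fragments and none passed the threshold either way, against a background of 0.111% higher and 0.193% lower. The median log2 ratio of the 19 was 0.05, where that of all genes with at least 20 fragments was 0.00. P2rx4, the ATP channel next to P2rx7 in the genome, gave 0.01 (-0.12 to 0.14), and P2ry14, a receptor for nucleotide sugars, gave 0.08 (-0.05 to 0.21). Among genes that handle extracellular ATP and NAD, 13 had at least 500 fragments and none passed, with a list median of -0.04. Entpd1 (CD39), which breaks down ATP, gave 0.06 (-0.03 to 0.15), and Cd38, which consumes NAD, gave -0.15 (-0.37 to 0.06). Of 19 inflammasome genes 15 had at least 500 fragments, none passed, and the list median was 0.03. Several effector genes had few fragments. Gsdmd, a pore-forming gasdermin, gave -0.07 from 183 against 323 fragments and the cytokine gene Il18 gave 0.03 from 215 against 352, while Nlrp3 had 73 against 104 fragments and 0.24 (-0.22 to 0.68), Il1b 111 against 152 and 0.29 (-0.08 to 0.65), and Casp1 177 against 255 and 0.22 (-0.07 to 0.50). At 2 or more tags Nlrp3 gave 0.68 (0.06 to 1.23), Il1b 0.05 (-0.57 to 0.59) and Casp1 0.17 (-0.27 to 0.58). Split by CD27, tagged against untagged, the same genes gave 0.96 (0.48 to 1.47), 0.06 (-0.30 to 0.43) and -0.43 (-0.71 to -0.15). Gsdme, another gasdermin gene, had 979 against 1477 fragments and gave 0.15 (0.03 to 0.27), short of the threshold.

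The 8 protein-coding genes with the highest lower bounds were Txndc15, Psg16, Aspa, Emc8, Acss1, Gadl1, Stap1 and Lhpp. Txndc15, a thioredoxin domain gene on chromosome 13, held 395 fragments in tagged cells (27.4 FPM) and 505 in untagged cells (21.0 FPM), a log2 ratio of 0.39 (0.20 to 0.58). Psg16, a pregnancy-specific glycoprotein gene on chromosome 7, gave 0.43 (0.17 to 0.69), and Aspa, an aspartoacylase gene on chromosome 11, gave 0.34 (0.14 to 0.54). For Aspa the level was 20.2 FPM at 0 tags, 25.04 at 1, 25.1 at 2 and 29.4 at 3 or more. Acss1, a mitochondrial acetyl-CoA synthetase gene, gave 0.33 (0.14 to 0.51), and Stap1, a signalling adaptor gene, 0.31 (0.13 to 0.49). These genes were picked by interval bound among the protein-coding genes, and Emc8 (0.26), Gadl1 (0.27), Stap1 and Lhpp (0.22) fell short of the threshold of 0.32. None of the 8 is in the gene lists used here.

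Genes less open in tagged cells included 2 that vary widely among these cells. The 8 protein-coding genes with the lowest upper bounds were Tuft1, Bend5, Pigc, Epha6, Unc5d, Lmnb2, Chil5 and Syt1. Unc5d, a long netrin receptor gene on chromosome 8, held 359 fragments in tagged cells (24.9 FPM) and 777 in untagged cells (32.2 FPM), a log2 ratio of -0.37 (-0.56 to -0.19). The ratio was -0.29 (-0.49 to -0.09) without cells with excess overlaps and -0.27 (-0.47 to -0.07) without the deepest 5% of cells, both short of the threshold. At its promoter the ratio over all cells was -0.74 (-1.17 to -0.34), from 67 against 188 fragments. By tag count Unc5d gave 32.2 FPM at 0 tags, 25.3 at 1, 24.1 at 2 and 24.7 at 3 or more. Rasef, a Rab-family GTPase gene on chromosome 4, had only 127 against 293 fragments, below the minimum of 500, and a log2 ratio of -0.46 (-0.77 to -0.16). Its level was 12.2 FPM at 0 tags and 8.91, 8.80 and 8.40 at 1, 2 and 3 or more. At 3 or more tags the log2 ratio to untagged cells was -0.37 (-0.84 to 0.04) for Unc5d and -0.49 (-1.36 to 0.19) for Rasef. Most tagged cells had 1 tag, and Unc5d was picked by its ratio over all of them. No shape over tag counts is therefore read from these levels. The Rasef ratio was -0.72 among cells with CD357 at or below its median and 0.04 (-0.47 to 0.54) among cells above it.

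Tuft1, the tuftelin gene on chromosome 3, was lowest of all by this rule, with 305 against 696 fragments and -0.45 (-0.65 to -0.25). Bend5, a gene with a BEN domain on chromosome 4, gave -0.42 (-0.64 to -0.20), and -0.59 (-0.96 to -0.25) at 2 or more tags. Lmnb2, the lamin B2 gene, gave -0.40 (-0.63 to -0.17), and Pigc, an enzyme gene of GPI anchor synthesis, -0.45 (-0.71 to -0.20). Arhgap30, a GTPase-activating protein gene on chromosome 1, lay on the other side, with 517 fragments in tagged (35.9 FPM) and 736 in untagged cells (30.5 FPM) and a log2 ratio of 0.23 (0.07 to 0.40), short of the threshold.

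**Figure D3:**
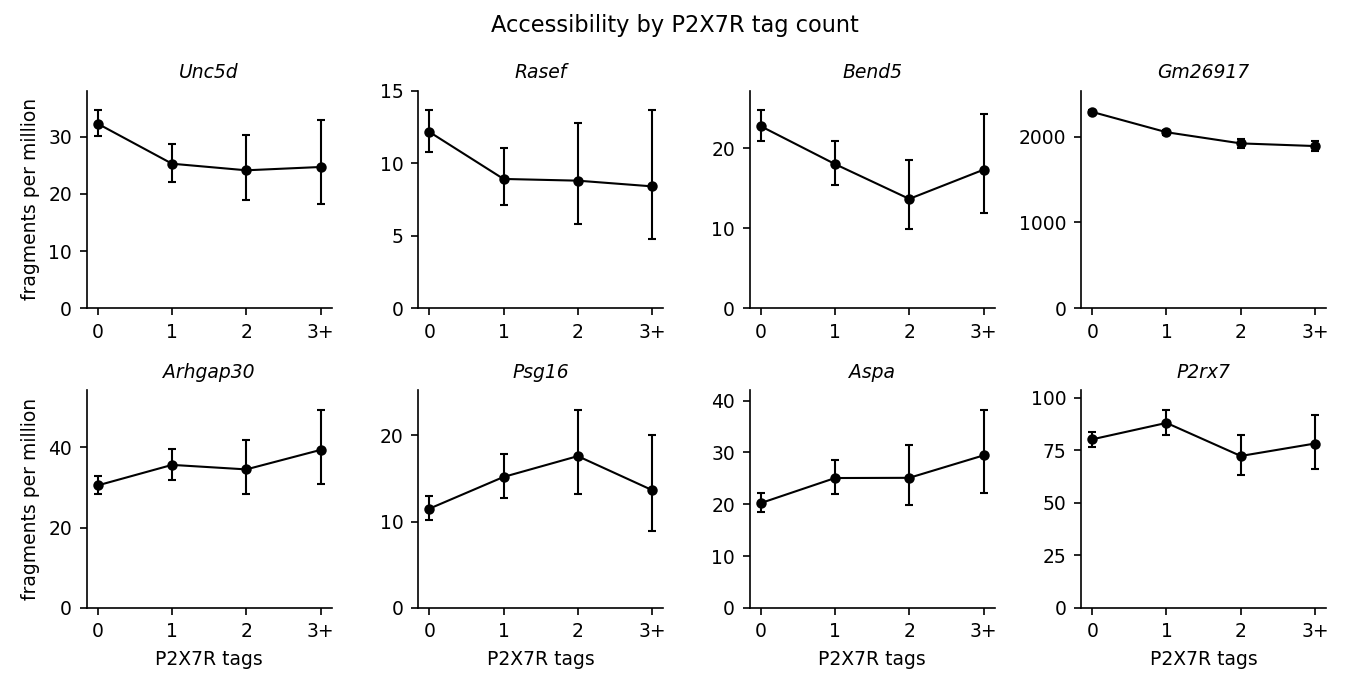
Accessibility of 8 genes, as FPM with exact 95% Poisson intervals, in cells with 0, 1, 2 and 3 or more P2X7R tags. Unc5d, Rasef, Bend5 and Gm26917 are lower in every tagged class than at 0 tags, and Arhgap30, Psg16 and Aspa are higher. P2rx7 shows no order. Unc5d, Bend5, Psg16 and Aspa were chosen by their ratio over all tagged cells, and Gm26917 after its values were seen. The tagged classes divide those same cells, so a common direction in them is no support.

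Among the genes named, the narrowest interval was at a locus of chromosome 17. The 3 neighbouring noncoding gene entries there, Gm26917, Gm42418 and AY036118, singled out after their values were seen, hold a large number of fragments. Their intervals are narrow for that reason and do not cover spread between cells. Whether all these fragments come from this locus was not tested. Gm26917 (chr17:39843013-39846341) held 28835 fragments in tagged cells, 2003 FPM, and 55145 in untagged cells, 2288 FPM, a log2 ratio of -0.19 (-0.21 to -0.17). The level was 2288 FPM at 0 tags, 2052 at 1, 1922 at 2 and 1891 at 3 or more, so it was lower at each step, the last of which was within counting error. Gm42418 gave -0.20 (-0.22 to -0.18) and AY036118 -0.22 (-0.26 to -0.18), and Gm42418 shares part of its fragments with each of the other entries, since AY036118 lies within it and its 2 kb upstream reach into Gm26917. Side by side, the same cells split by CD357, CD27 and MERTK gave -0.10, -0.08 and 0.00 at Gm26917.

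Among distal windows, 1 of the lowest lay between genes on chromosome 17, with Ehd3 as the nearest protein-coding start at 71367 bases. It held 197 fragments in tagged and 454 in untagged cells, a log2 ratio of -0.46 (-0.71 to -0.22), and -0.54 at 2 or more tags. The highest window, also between genes on chromosome 17 and 20617 bases upstream of Ppp1r21, held 276 against 326 fragments and gave 0.50 (0.27 to 0.74). The central 300 bases of both are shown as the ends of the range, from GRCm38 on the plus strand at chr17:73875351-73875650 and chr17:88509351-88509650.
Ehd3 window: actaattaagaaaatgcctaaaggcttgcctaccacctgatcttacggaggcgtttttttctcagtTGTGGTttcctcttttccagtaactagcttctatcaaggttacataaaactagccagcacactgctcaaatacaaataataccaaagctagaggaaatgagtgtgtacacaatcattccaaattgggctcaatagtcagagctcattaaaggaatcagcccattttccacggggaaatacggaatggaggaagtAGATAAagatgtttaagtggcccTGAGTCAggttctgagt
Ppp1r21 window: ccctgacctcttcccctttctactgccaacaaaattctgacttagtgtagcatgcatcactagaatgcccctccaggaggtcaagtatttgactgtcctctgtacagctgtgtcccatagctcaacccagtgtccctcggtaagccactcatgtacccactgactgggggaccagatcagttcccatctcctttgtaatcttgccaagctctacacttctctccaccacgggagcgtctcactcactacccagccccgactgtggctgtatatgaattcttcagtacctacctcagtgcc
The capitals mark the letters of RUNX, GATA and AP-1 in the first window, 1 match each, and the second held no match to the 4 sets of letters. The central 300 bases of all 1845 windows held them in 25.1% (RUNX), 12.5% (GATA), 10.9% (AP-1) and 8.94% (ETS) of cases.

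By interval bound, the promoters at the 2 ends were those of Slc39a8, a zinc and metal transporter gene, with 317 against 395 fragments and 0.43 (0.21 to 0.64), and of Spon1, an extracellular matrix gene, with 193 against 451 and -0.48 (-0.73 to -0.24). At 2 or more tags they gave 0.60 and -0.53. Cpd, a carboxypeptidase gene, gave -0.44 (-0.67 to -0.22) at its promoter, and Herc6, an interferon-induced gene, gave -0.43 (-0.66 to -0.20).

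Gene lists for the 2 kinds of stem cells had medians near 0 between tagged and untagged cells. The PLT panel of 6 genes had a median log2 ratio of -0.05 with 1 of 6 above 0, and the MUL panel of 7 genes had 0.04 with 4 of 7 above 0. The longer lists hold genes higher in RNA of the study's clones from single transplanted cells, and are read here in chromatin. They had medians of -0.02 (67 PLT genes) and 0.01 (62 MUL genes). The study named its clusters of cells by ATAC signatures of such clones, which were not used here. Of the 5, 6, 56 and 52 members of these 4 lists with at least 500 fragments none passed the threshold, where 0.111% of all genes were higher and 0.193% lower, so these counts do not set the lists apart from other genes. Vwf, which encodes a platelet adhesion protein and marks platelet-biased HSCs, gave -0.02 (-0.08 to 0.05) from 3095 against 5247 fragments, and Flt3, a growth factor receptor gene of multipotent cells, gave 0.04 (-0.08 to 0.16). For 22 genes known to be higher in aged HSCs the median was -0.03 with 5 of 22 above 0, beside 13429 of 26675 genes above 0 in all, and -0.09 at 2 or more tags, and for 22 AP-1 and early response genes it was -0.02.

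Marker lists of other cells differed little between the groups. The summed level was 254 against 255 FPM for 16 macrophage genes, 277 in both groups for 14 B cell genes, 502 against 492 for 16 T and NK cell genes and 384 against 389 for 17 erythroid genes. The HSC list summed to 2372 against 2359. No marker of these lists was at 0, since fragments are counted over whole genes. Per kb, the median HSC marker held 1.247 FPM, against 1.52 for megakaryocyte and platelet markers, 1.097 for myeloid markers, 0.490 for B cell markers, 0.822 for all protein-coding genes and 0.604 for all genes.

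The same cells were also split by other antibodies. Of the 17112 genes, 0.304% passed the threshold in either direction for P2X7R, 0.169% for MERTK (tagged against untagged), 0.240% for CD27 (tagged against untagged) and 0.392% for CD357 (above against at or below its median). For distal windows the shares were 1.68% for P2X7R, 1.08% for MERTK, 0.867% for CD27 and 1.63% for CD357. In the order P2X7R, MERTK, CD27 and CD357, the higher group held 1325, 1461, 2051 and 1365 of the 3629 cells. For genes the SD of the ratios was 0.090, 0.088, 0.086 and 0.091, and the median half-width of the interval 0.147, 0.145, 0.144 and 0.147. No order of the antibodies is read from the shares. These splits share all their cells, so no overlap between them is given. Side by side, Unc5d gave -0.37 for P2X7R, -0.26 for CD357, -0.22 for CD27 and 0.10 for MERTK. For Rasef the values were -0.46, -0.36, -0.20 and 0.20 in that order, and for Arhgap30 they were 0.23, 0.26, 0.09 and 0.00.

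The cells also varied along an axis of chromatin on which the share of tagged cells changed. A decomposition of gene accessibility in single cells, using 23072 genes and no antibody, gave 12 components. The tagged share changed most along component 7, by 14.7 percentage points between the lowest and highest quintile of cells, against -9.50 to 7.02 points along the other 11, and the component was chosen for that change. From the lowest to the highest quintile 28.5% (25.3 to 31.9), 33.6%, 36.3%, 40.9% and 43.3% (39.6 to 46.9) of cells were tagged. Cells with 2 or more tags went from 7.99% (6.12 to 10.2) to 17.1% (14.4 to 20.02). The outer quintiles had medians of 9961 and 9956 ATAC fragments, and of 28 other tags at the lowest and 26 at the highest. At 10 tags per cell the share went from 11.7% to 20.5%. Antibodies that change along the axis are part of these 10, such as CD274, with means of 21.9 and 20.1 tags in the outer quintiles. No order is therefore read from the thinned shares.

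**Figure D4:**
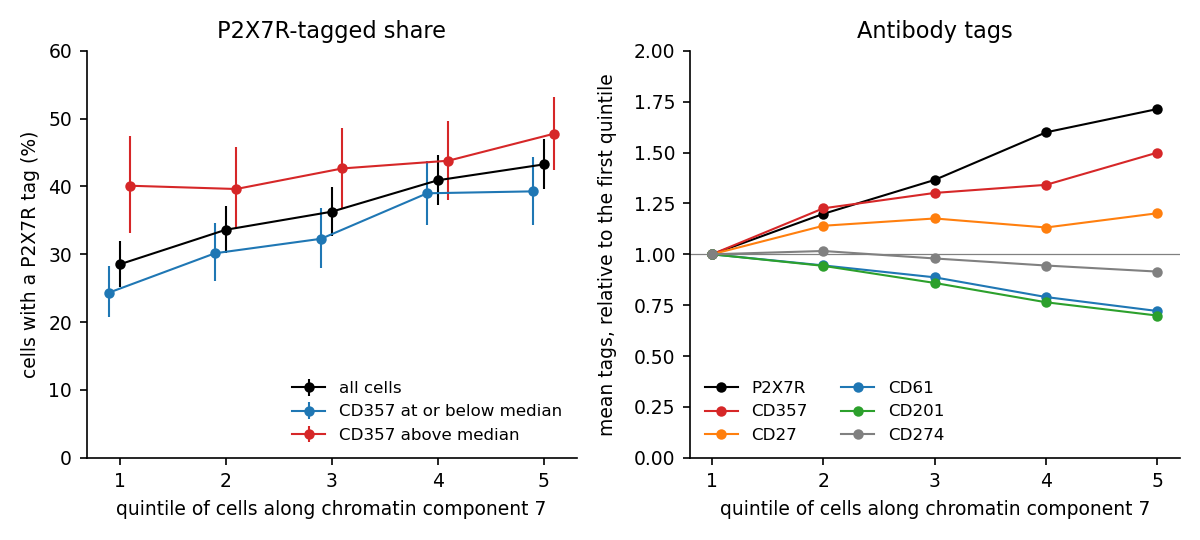
Left, percentage of cells with a P2X7R tag in quintiles of cells along chromatin component 7, with exact 95% intervals, for all cells and for cells with CD357 at or below and above its median; right, mean tags per cell of 6 antibodies relative to the lowest quintile. The tagged share goes from 28.5% to 43.3% over all cells and from 24.3% to 39.3% in cells low in CD357, while mean CD61 and CD201 are lower towards the highest quintile.

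Other surface proteins changed along the same axis, although none was used to make it. Mean CD357 went from 2.56 (2.44 to 2.67) to 3.83 tags (3.69 to 3.98), CD61 from 4.33 (4.18 to 4.49) to 3.13 (3.00 to 3.26) and CD201 from 0.485 to 0.339. MERTK, higher in tagged cells, went from 0.810 to 0.690 tags along the axis, against the direction of P2X7R. In cells with CD357 at or below its median the tagged share went from 24.3% (20.8 to 28.2) to 39.3% (34.4 to 44.3), and in cells above it from 40.1% (33.1 to 47.4) to 47.8% (42.4 to 53.3), where the intervals overlap. The difference between these 2 gradients was not tested. Cells with excess overlaps were fewer at the top, 3.31% of the highest quintile against 7.30% of the lowest, and a component matched to it without them, with gene weights correlated at 0.434, gave 9.51 points.

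The ends of the axis were defined by a few loci of large contrast, which are no finding in themselves. In the highest quintile against the lowest, Ugt1a6a, a gene of the Ugt1a cluster of glucuronidating enzymes whose members overlap, had 286 against 73 fragments (2.01 on the log2 scale) and Arhgap30 had 312 against 138 (1.22). Unc5d had 108 against 342 (-1.61), Rasef 31 against 146 (-2.17), and the imprinted gene Peg3 193 against 496 (-1.31). Hoxa5 (-1.10), the oxysterol receptor gene Gpr183 (-1.01) and Ezh1, which encodes a histone methyltransferase of Polycomb complex 2 (-0.81), were also less open at the top. The same genes between tagged and untagged cells gave 0.04 (Ugt1a6a), 0.23 (Arhgap30), -0.12 (Peg3), -0.29 (Hoxa5), -0.27 (Gpr183) and -0.19 (Ezh1). Gm26917 gave -0.55 along the axis.

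Along this axis the stem cell lists had medians further from 0 than between tagged and untagged cells. The PLT panel had a median of -0.26 between the highest and lowest quintile, and each of its 6 genes was below 0, from Plek2 and Vwf (both -0.13) to Inhba (-0.35). The MUL panel had a median of 0.27, led by Ctla2a (1.27), Clec4d (0.43) and Flt3 (0.42), while Sox4 (-0.24), Crip2 (-0.08) and Cd27 (-0.03) were below 0. The clone lists gave -0.10 (PLT) and 0.17 (MUL), the aged HSC list -0.17 and the AP-1 list -0.13, beside 0.00 for all genes. Lists of other cells also had medians above 0, at 0.22 for B cell, 0.13 for macrophage, 0.12 for mast cell and basophil, 0.11 for myeloid and 0.10 for erythroid genes. All these genes could enter the decomposition, so the values describe the axis.

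P2rx7 itself was more open at the end with more P2X7R tags. To keep the gene out of the axis, the decomposition was repeated without chromosome 5, which gave gene weights correlated at 0.976 with the first and a tagged share of 28.2% and 42.7% in its outer quintiles. On it P2rx7 held 642 fragments in the highest and 529 in the lowest quintile, a log2 ratio of 0.32 (0.15 to 0.49). The median was -0.002 for all genes and 0.04 for the purine receptor list. How many genes reach a ratio this large along the axis is not given. The axis was chosen for its change in tagged share, so the P2rx7 value is a description. The MUL medians stayed similar (0.22 for the panel and 0.17 for the clone list), while those of the PLT lists were nearer 0 (-0.16 and -0.02), with Plek2 of the PLT panel at 0.07. The B cell and myeloid lists also moved nearer 0, to 0.08 and 0.05, and the mast cell and basophil list away from it, to 0.19. The component was less alike over other cells, with gene weights correlated at 0.526 without the deepest 5% of cells and 0.586 with no minimum of tags. There the tagged share changed by 13.1 and 16.2 points. P2rx7 is not given on the components made over other cells.

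**Figure D5:**
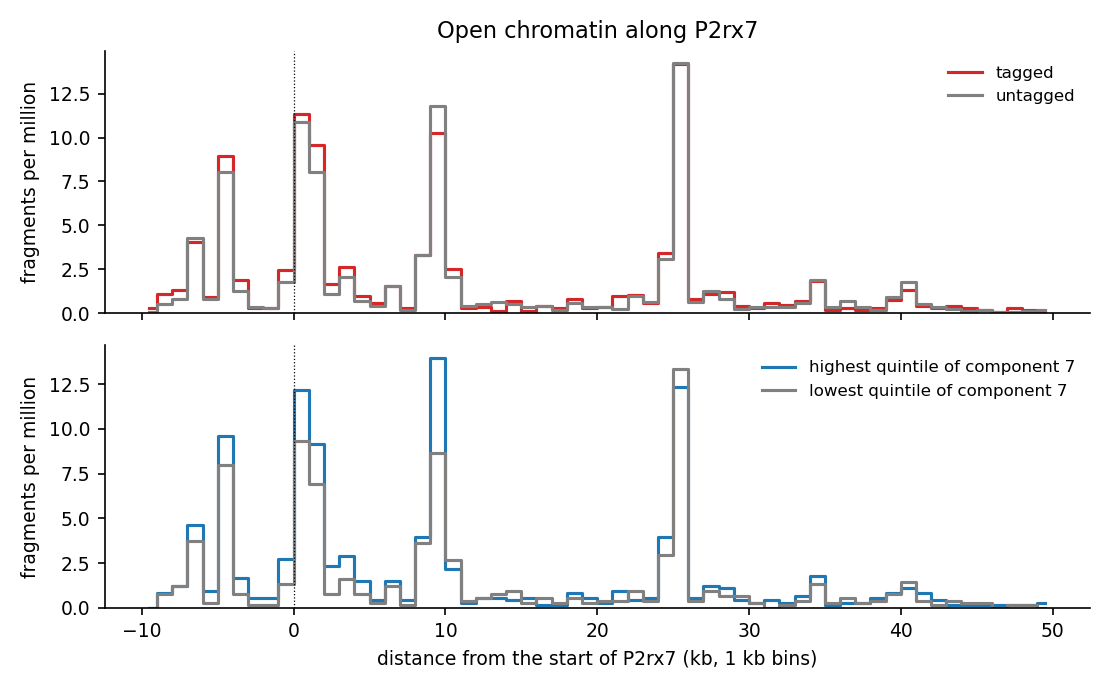
FPM in 1 kb bins from 10 kb before to 50 kb after the start of P2rx7, for P2X7R-tagged and untagged cells (top) and for the highest and lowest quintile of cells along component 7 made without chromosome 5 (bottom). In the bin from 9 to 10 kb tagged and untagged cells hold 10.3 and 11.8 FPM, and the highest and lowest quintile 13.96 and 8.66 FPM.

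Within the gene, values along the axis are given for the tall bin with the largest contrast and for the tallest bin, whose intervals overlap. The bin from 9 to 10 kb after the start, in an intron of P2rx7, held 102 against 65 fragments, 13.96 against 8.66 FPM, a log2 ratio of 0.69 (0.23 to 1.16). The tallest bin, from 25 to 26 kb, held 90 against 100 fragments and gave -0.11 (-0.54 to 0.31). Between tagged and untagged cells the same 2 bins gave -0.19 (-0.49 to 0.09) and -0.01 (-0.26 to 0.25). The 300 bases with most fragments in the first bin are shown as the site of the largest contrast among the tall bins, chr5:122653431-122653730 of GRCm38, plus strand.
P2rx7 intron site: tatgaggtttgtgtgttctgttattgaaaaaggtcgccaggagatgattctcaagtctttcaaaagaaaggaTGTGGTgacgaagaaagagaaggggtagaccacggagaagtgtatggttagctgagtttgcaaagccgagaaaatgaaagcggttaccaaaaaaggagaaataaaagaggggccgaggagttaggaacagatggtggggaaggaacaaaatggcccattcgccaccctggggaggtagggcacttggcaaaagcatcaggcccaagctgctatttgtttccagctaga
The capitals mark 1 match to the RUNX letters TGTGGT, and no match to the ETS, GATA or AP-1 letters was found in it.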

How the data were processed

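The ATAC and RNA libraries were processed by the authors with Cell Ranger ARC 2.0.2 on mm10, and the deposited values are counts: fragments, reads and UMIs of each barcode, and tags of each antibody from CITE-seq-Count, of a version not given in the sources used here. RNA counts of genes were not analysed here. Genes came from GENCODE M21 (32587 genes). Fragments were counted over genes with 2 kb upstream, promoters and 1 kb distal windows (by midpoint), and scaled by nuclear fragments. Ratios had 0.5 added to each sum, and intervals were conditional binomial, Clopper-Pearson or Poisson. Feature counts needed 500 fragments, and list medians 20. Doublets were not removed. Components came from TF-IDF and a truncated SVD of genes open in over 2% of cells. Genes named were the antigen genes, 8 each way by interval bound, the panels, pathway genes and 5 genes of earlier work, and for regions 5 each way by bound. Members, lists and rules were chosen with earlier results of these data known. Scripts were tested on simulated data. Of 508 list entries 506 matched. Alternatives changed the tag cut, cell filters, depth weighting, scaling, minimum, fold and windows, and those of the chromatin axis were chosen after seeing the data. Software was Python 3.11.15, scikit-learn 1.9.0, pandas 2.3.3, matplotlib 3.10.9, scipy 1.17.1 and numpy 2.4.6.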

Additional observations from a re-analysis of the deposited data

Results flagged for a closer look

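The 2 signals outside the antibodies and genes compared above are given as values. Tags that matched no antibody were present at a mean of 4.62 per tagged cell and 4.19 per untagged cell, a ratio of 1.10 (1.07 to 1.14) that was 1.05 with untagged cells weighted to antibody depth. Fragments assigned to chromosome Y, which cells of female mice lack, numbered 2759 in tagged and 4848 in untagged cells, 192 and 201 FPM (fragments per 1000000 nuclear fragments), a log2 ratio of -0.07 (-0.14 to -0.0024).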

How the results depend on the processing

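No paired analysis was possible because both groups of cells came from 1 pool. With 1 sample per group, no replicate could be left out. The number of features past a log2 ratio of 0.32 changed with many settings. Most named genes were chosen by their interval bound in nearly the same cells, so their kept signs are no sign of stability. At 2 or more tags the intervals of Txndc15, Stap1, Pigc, Epha6, Lmnb2 and Chil5 included 0, as did those of Psg16, Aspa, Emc8, Gadl1, Stap1, Tuft1 and Rasef among cells with CD357 above its median and of Lmnb2, Chil5 and Arhgap30 among the others. Rasef was at 0.041 among cells with CD357 above its median, and Gata1 and Cyp11a1, whose ratios were near 0, also changed sign. Counts are given here as higher and lower. With at least 1000 fragments they were 0 and 3 genes, 1 and 1 promoters and 0 and 0 distal windows. With at least 200 fragments they were 153 and 197 genes, 139 and 231 promoters and 515 and 458 windows. The minimum changes how many features are tested, and that number is not given for these minima. Shares are therefore lacking, and these counts are not read as more or fewer differences than the main ones. At 1.5-fold all were 0. At 2 or more tags against none the other antibodies were at 1.21 times, and CD357 as a share of all tags but those of P2X7R at 1.19 times. With that cut P2rx7 was at -0.10, and the counts were 99 and 159 genes and 77 and 153 promoters, with 26 windows lower. The cut left 448 tagged cells with 4974050 nuclear fragments, where the main groups had 1325 tagged cells with 14398215. Counting error was larger in the smaller group, with Txndc15 at -0.01 to 0.57 against 0.20 to 0.58. The larger counts are therefore not read as stronger differences. For exactly 1 tag they were 29 and 52 genes, with 32 promoters higher and the other antibodies at 1.07 times. Cells with 20 or more other tags gave 6 and 10 windows. Without cells with excess overlaps 7 windows were higher, the other antibodies stood at 1.08 times and the tagged share along component 7 changed by 9.51 points. Without the deepest 5% of cells 8 windows were higher and the other antibodies stood at 1.05 times, and with no minimum of tags at 1.14 times. Equal weights for cells gave 25 and 61 promoters. With CD357 at or below its median there were 36 genes higher and 6 and 2 windows. With CD357 above it there were 10 promoters higher, 0 and 1 windows, P2rx7 at -0.10 and 7.68 points along component 7. Windows of 500 bp gave 7 and 9. For 2 or more tags the change along component 7 was 9.09 points. The causes were not tested, other than that a higher minimum or fold admits fewer features. Clone list medians stayed between -0.04 and 0.03 under all alternatives run.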

Other observations

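The tagged share was also read by where a cell's fragments lay. In the quintile of cells with the lowest share of fragments at transcription start sites 40.6% were P2X7R-tagged (37.0 to 44.3), and in the quintile with the highest share 31.5% (28.2 to 35.1). By the share of fragments over 10 kb from a gene start the quintiles went from 32.4% (28.97 to 35.9) to 40.6% (37.0 to 44.3), and by the share in peak regions from 37.1% to 35.0%. The medians of tagged and untagged cells differed little on these scales, at 39.6% and 39.5% of fragments over 10 kb from a gene start.

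Along component 7, a few genes outside the stem cell lists were more open at the end with more P2X7R-tagged cells. Gata1, the erythroid and megakaryocyte transcription factor gene, gave 0.61 between the outer quintiles, although its ratio between tagged and untagged cells was -0.08 (-0.27 to 0.10). Sema4d, a semaphorin gene, gave 0.56 along the axis and 0.16 (0.07 to 0.26) between tagged and untagged cells. Pkd1l2, a polycystin gene, gave 0.73 and 0.20 (0.04 to 0.36). Of the 10 genes that led the axis at this end, 8 were above 0 and 2 below between tagged and untagged cells. Their ratios ran from -0.07 to 0.23 with a median of 0.09, beside 13429 of 26675 genes above 0 in all. The axis was chosen for its change in tagged share, so this is a description.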
